A study of Mus musculus with 3 samples.

Results

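The cytosolic ribosomal protein genes were followed through 3 chromatin immunoprecipitation sequencing (ChIP-seq) libraries of mouse liver. Members were chosen by symbol alone, as the protein-coding genes of GENCODE release M1 (NCBI37/mm9) named Rpl or Rps with a number, with an optional a, x, y or l, plus the Rplp genes. The S6 kinases of the Rps6k family were left out. The rule gave 79 of 22367 protein-coding genes, of which 45 encode proteins of the large (60S) subunit, 31 encode proteins of the small (40S) subunit and 3 encode the P-stalk of the large subunit. No measured value entered the rule.

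Ribosomal proteins assemble with ribosomal RNA in the nucleolus into the 2 subunits that carry out protein synthesis in every cell. Their genes are among the most heavily transcribed protein-coding genes, and many of their mRNAs begin with a run of pyrimidines, the 5′ terminal oligopyrimidine tract, through which the mTOR pathway controls their translation. In the liver they serve the output of plasma proteins. RARα is a nuclear receptor for retinoic acid, and it binds DNA as a dimer with RXRα, which is also the partner of many other nuclear receptors.

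All 3 libraries came from livers of male wild type C57BL/6 mice aged 3 months, with 1 RARα library, 1 RXRα library and 1 input library, which is sonicated chromatin without an antibody. The labels give no treatment and no replicate, and do not say how many animals a library holds. No difference between libraries could therefore be tested, and intervals given below cover counting error only. RARα was deposited as a list of 143280 peaks with a score, of which 32946 had a score greater than 20, the threshold of the study. RXRα and input were deposited as coverage in 32 bp bins, corresponding to 9999939 and 9999292 reads, so read numbers of the 2 tracks compare directly. The study names more mapped RXRα reads than this track holds, and how the reads in the deposited tracks were chosen or normalised is not given in the sources used here. Depth and intervals below refer to the reads in the tracks. Binding in more cells and stronger binding per cell cannot be told apart in whole liver. Of the genes listed as hepatocyte markers, 5 of 6 had a RARα peak within 1 kb from the gene start, with a median score of 212. Of 10 markers of endothelium, Kupffer cells, stellate cells, cholangiocytes and lymphocytes, 2 had one, Lrat with a score of 23 and Stab2 with 22.

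The sequence around the start of the genes with the highest RARα scores is shown first, since the RARα peaks lay on it. Of the 10 members with the highest scores, 8 had a start in RefSeq, which was placed in NCBI37/mm9 by exact sequence match. Each stretch runs from 25 bases before the RefSeq start to the first 20 transcribed bases on the gene strand, and capitals mark a run of C and T that holds or touches that start. Where a gene has several RefSeq starts, the start nearest to the RARα summit is given.
Rps9, chr7:3655618-3655662, plus strand: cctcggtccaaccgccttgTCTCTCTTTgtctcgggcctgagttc
Rps15, chr10:79755151-79755195, plus strand: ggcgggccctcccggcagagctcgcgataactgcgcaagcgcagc
Rpl7a, chr2:26766302-26766346, plus strand: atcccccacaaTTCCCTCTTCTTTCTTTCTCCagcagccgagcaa
Rplp0, chr5:116009451-116009495, plus strand: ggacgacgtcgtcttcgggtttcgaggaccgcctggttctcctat
Rpl10a, chr17:28465485-28465529, plus strand: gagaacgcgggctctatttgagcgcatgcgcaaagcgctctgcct
Rps18, chr17:34092591-34092635, minus strand: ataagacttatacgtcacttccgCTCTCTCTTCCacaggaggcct
Rps21, chr2:179992059-179992103, plus strand: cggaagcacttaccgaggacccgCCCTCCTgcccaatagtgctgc
Rps6, chr4:86503252-86503296, minus strand: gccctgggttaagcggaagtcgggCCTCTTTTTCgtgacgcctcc
The start of Rps6 lies in a run of 10 pyrimidines, and Rpl7a had the longest run shown, of 21. Rps15, Rplp0 and Rpl10a had no such run at the RefSeq start. Over the 58 members with a placed RefSeq start, 25 had a run of at least 5 pyrimidines at any of their RefSeq starts.

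The question put to the RARα library was whether the ribosomal protein genes carried a peak at their start. A filtered RARα peak had its summit within 10 kb from the gene start in 77 of 79 members, against 52.2% of all protein-coding genes. Within 1 kb it was 74 members, or 93.7%, against 40.9% of all protein-coding genes. The 60S genes had a peak within 1 kb in 42 of 45, the 40S genes in 29 of 31 and the P-stalk genes in 3 of 3. The 76 mitochondrial ribosomal protein genes, whose products form the separate ribosome of the mitochondrion, were bound at nearly the same rate, in 70 genes or 92.1%. Occupancy at this rate was thus also seen outside the cytosolic ribosome.

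The strongest peak within 1 kb had a median score of 62.5 over the 74 members that had one, with quartiles of 50.8 and 84.8. The corresponding median was 47 over all protein-coding genes with a peak and 51 over the mitochondrial ribosomal protein genes. The median was 61 for the 60S genes, 72 for the 40S genes and 59 for the P-stalk genes, and the 3 ranges overlapped. The false discovery rate deposited with these peaks was between 0% and 0.01%. Scores spread from 27 in Rpl39 to 190 in Rpl3, and 10 members were above 100 while 18 were below 50.

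**Figure D1:**
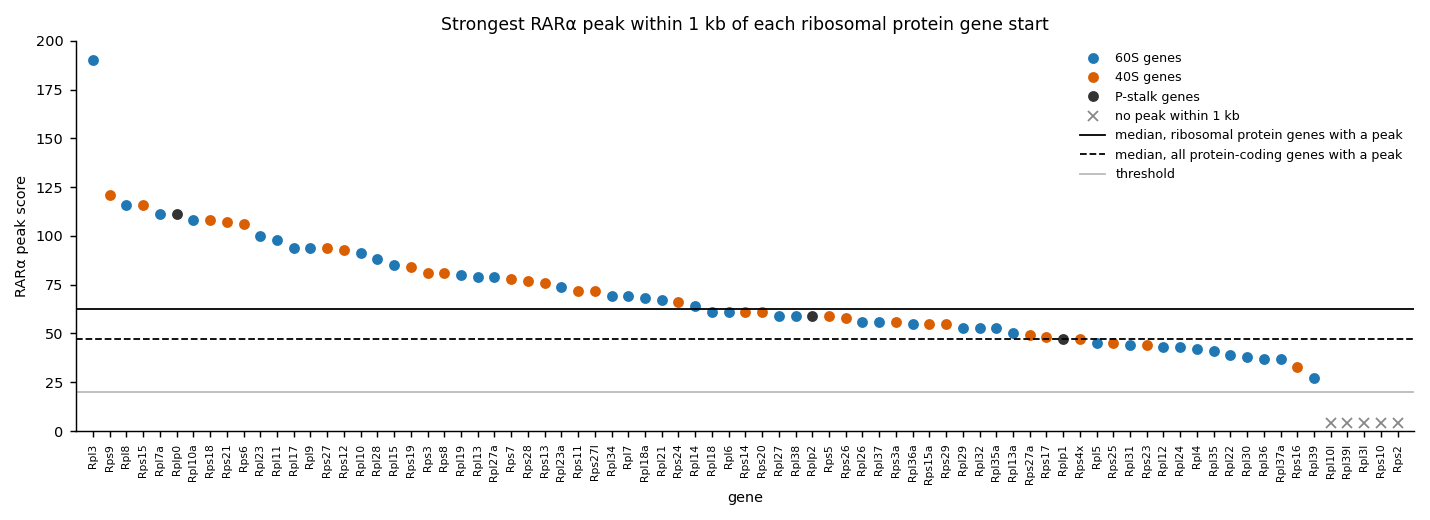
Score of the strongest RARα peak within 1 kb of the start of each of the 79 genes, in order of score; the y axis is the deposited score, points are single genes coloured by ribosomal subunit, and crosses are genes without a peak, drawn near the base line and not at a measured value. Rpl3 stands alone at 190, the solid line marks the median of 62.5 over the genes with a peak, and the dashed line marks 47, the median over all protein-coding genes with a peak.

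Rpl3, which encodes a core protein beside the peptidyl transferase centre, had the highest RARα score of the family. Its strongest peak scored 190, spanned chr15:79913511-79914311 and had its summit 61 bp downstream of the gene start, in an exon. The gap from Rpl3 to the next member was larger than the whole range between the next 10 members. Rps9 scored 121, and the 60S gene Rpl8 and the 40S gene Rps15 both scored 116. Rpl7a and Rplp0 followed at 111, Rpl10a and Rps18 at 108, Rps21 at 107 and Rps6 at 106. Of these, the Rps18 peak was nearest to the start of Vps52, a neighbour that begins within 1 kb. The 10 highest scores thus came from 5 genes of the 40S subunit, 4 of the 60S subunit and 1 of the P-stalk. This order is for GENCODE starts, and within 1 kb of their RefSeq starts Rps2 scored 120 and Rpl13a 118.

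The P-stalk binds the elongation factors during translation, and its genes did not share a common level. Rplp0, which encodes the protein that anchors the stalk, had a RARα score of 111 at 59 bp downstream of its start. Rplp1 had a score of 47 at -20 bp, where negative positions are upstream, and Rplp2 had 59 at 276 bp downstream. Rplp0 was thus above the upper quartile of the family, and Rplp1 was below the lower one.

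Members with roles beyond the ribosome covered the same range of RARα scores. Rps6, whose protein is phosphorylated by the S6 kinases downstream of mTOR, had a score of 106 with its summit 11 bp downstream. Rpl11 and Rpl5 encode proteins that bind 5S ribosomal RNA and restrain Mdm2, and had scores of 98 and 45. Rps19, which is mutated in Diamond-Blackfan anaemia, scored 84. Rps27a, which encodes a fusion of ubiquitin and a 40S protein, had 2 peaks within 1 kb with scores of 49 and 47. Its peak of 47 was nearest to the start of 1700034F02Rik. Rpl13a, whose protein silences inflammatory transcripts, scored 50 within 1 kb from its annotated start. That Rpl13a peak was nearest to the start of Flt3l, another gene that begins within 1 kb.

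Most of the RARα peaks sat just inside the transcribed region. The strongest summit lay a median of 60 bp downstream of the gene start, with quartiles of 30.8 and 92.8 bp, and 61 of 74 summits were downstream. The median was 31 bp over all protein-coding genes with a peak and 51.5 bp over the mitochondrial ribosomal protein genes. Measured from the nearest RefSeq start, it was 30 bp over the 53 of these members that had one. In 44 of the 74 members, or 59.5%, the summit was 0 to 100 bp downstream, against 36.2% of all protein-coding genes with a peak within 1 kb. By annotation, 49 of the summits fell in an exon of the member, 12 in an intron and 13 upstream, without a count over all genes beside them. The peak interval covered the gene start itself in 68 of 74 members, and its median width was 655.5 bp, against 591 bp over all genes with a peak. Any filtered peak covered the start in 89.9% of the 79 members, close to 86.9% of the 9140 genes with RARα within 1 kb.

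**Figure D2:**
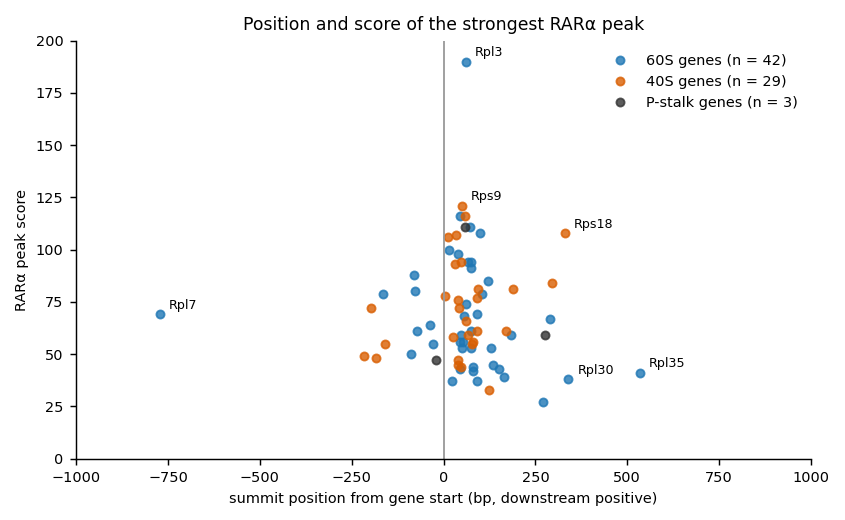
Position of the strongest RARα summit within 1 kb (x axis, bp from the gene start, downstream positive) against its deposited score (y axis) for the 74 genes with a peak, 1 point per gene, coloured by ribosomal subunit. The points crowd between 0 and 100 bp downstream, where 44 of 74 lie, and Rpl7 at -772 bp and Rpl35 at 534 bp are the most distant.

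The most distant summits were those of Rpl7, at -772 bp, and of Rpl35, at 534 bp. Both genes were named after their values were seen. The Rpl7 peak at -772 bp, with a score of 69, was nearest to the start of Rdh10. Another peak, 313 bp downstream and nearest to Rpl7, scored 60. The RefSeq start of Rpl35 lies 493 bp downstream of the GENCODE start, so that its summit was 41 bp from the RefSeq start. In 9 members the RefSeq start was more than 200 bp from the GENCODE start. In 7 of these 9, the strongest RARα summit within 1 kb of the RefSeq start lay within 100 bp of it. For this count peaks were picked anew around the RefSeq starts. Where a gene has several, the start nearest to the summit was used, which favours short distances. In Rps18 and in Rplp2 the summit was at -5 bp from the RefSeq start.

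A single RARα peak was the usual arrangement in the members. Within 1 kb, 54 members had exactly 1 filtered peak, and the 79 members together had 98. Within 10 kb there were 192 peaks, with a median of 2 per member and a highest number of 12 at Rpl18. The strongest of a member's peaks lay within 1 kb in 57 members. These counts have no share over all genes beside them, so they do not set the members apart. A neighbouring gene begins within 1 kb of 13 members. Among the 66 members without such a neighbour, 62 had a RARα peak within 1 kb.

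The 5 members without a RARα peak within 1 kb fell into 2 kinds. The tissue-restricted paralogs Rpl10l of testis, Rpl39l of testis and Rpl3l of heart and skeletal muscle had none, and Rpl10l and Rpl39l had none within 10 kb either. Rpl10l had 1 RXRα read and 0 input reads within 500 bp of its start, Rpl39l had 0.219 and 3, and Rpl3l had 1.73 and 1, where fractions arise because a read can lie partly outside the window. These numbers are at or under 3 reads, so that no fold is given for these genes, although the ratios of Rpl39l and Rpl3l are among those behind the family median below. Rpl3l had 5 RARα peaks within 10 kb, but the strongest, with a score of 141, lay 8881 bp downstream and nearest to Sepx1, and the peak at -7939 bp was the one beside Rps2, whose start lies nearby.

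The other two members without a nearby peak, Rps2 and Rps10, are general ribosomal protein genes whose GENCODE starts lie far upstream of the RefSeq starts. Rps2 had a RARα peak with a score of 120 at 1774 bp downstream of the GENCODE start, which is at -173 bp from the RefSeq start. Rps10 had a peak with a score of 57 at 1369 bp downstream, which is at -16 bp from its RefSeq start. The sequence at that RefSeq start, with the pyrimidine run in capitals, is given for comparison with the strong genes above.
Rps10, chr17:27772170-27772214, minus strand: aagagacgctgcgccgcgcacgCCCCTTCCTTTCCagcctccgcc
Likewise Rpl13a had a peak with a score of 118 at 7712 bp downstream of its GENCODE start and 40 bp from its RefSeq start, and the placement used for the family counted only its weaker peak of 50. With RefSeq starts in place of GENCODE starts, a RARα peak lay within 1 kb of 55 of the 58 members that could be placed, and the remaining members were Rpl10l, Rpl39l and Rpl3l. Over all 14500 protein-coding genes that could be placed the share was 46.7%.

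RXRα was read as coverage, with each member's reads counted within 500 bp on either side of the gene start. The 79 members had a median of 31.9 RXRα reads and 10.5 input reads, against 9 and 4.89 over all protein-coding genes. The ratio of RXRα to input had a median of 2.78 over the 78 members with any input read, against 2.23 over all genes. Among genes with at least 10 input reads the order was the opposite, 2.41 in the members and 3.23 in all genes. The exact 95% interval of the ratio was above 1 in 59 members and included 1 in 20. The same count was not made over all genes, so it does not set the members apart.

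Among genes that had a RARα peak within 1 kb, the members had less RXRα relative to input than others. Their median ratio was 2.81 in 74 members against 4.09 in 9140 genes. The members had a median of 32 RXRα and 11.4 input reads, and the 9140 genes had 35.9 and 9.19. By these medians the members were lower in RXRα reads and higher in input reads. Over the strongest RARα peak itself, RXRα coverage was a median of 3.3 times input in the members and 4.69 times in all genes with a RARα peak. The RARα score and the RXRα ratio did not rise together across the 74 members, with a Spearman rho of 0.0152, given as a description because the genes share the same libraries.

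**Figure D3:**
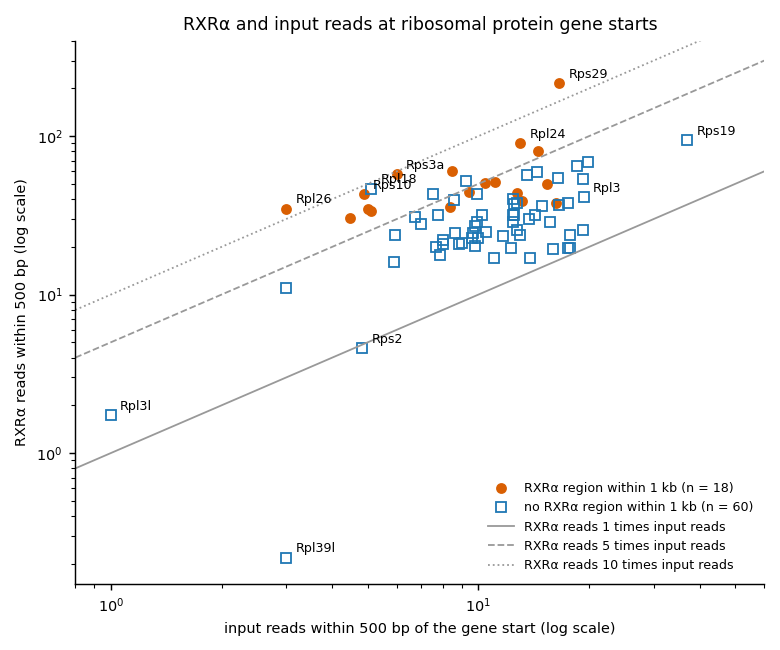
RXRα reads (y axis) against input reads (x axis) within 500 bp of the gene start on log axes, 1 point per gene for the 78 genes with at least 1 input read; filled circles are genes with an RXRα region within 1 kb, open squares those without, and the grey lines mark RXRα reads at 1, 5 and 10 times the input. Rps29 is the highest at 215.5 RXRα reads, and most genes lie between the lines for 1 and 5 times input.

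The RXRα signal was uneven within the family. Rps29, a small zinc-binding protein of the 40S subunit, had 215.5 RXRα reads over 16.6 input reads, a ratio of 13 with an interval from 7.75 to 22.2. Rpl26, which also controls translation of p53, had 34.9 over 3, a ratio of 11.6 with a wide interval from 3.68 to 59.3 because of the few input reads. Rps3a had a ratio of 9.58 (4.11 to 27), Rpl18 of 9.1 (3.67 to 29.7) and Rps10 of 8.76 (3.41 to 27.8). These ratios are at GENCODE starts, and the RefSeq starts of Rpl18 and Rps10 lie 2614 and 1385 bp downstream. The intervals of these 5 genes overlap, and their order is not resolved at this depth.

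Among members with more than 3 reads in either track, the lowest ratios were those of Rps2 and of 3 genes of the 60S subunit. Rps2 had 4.57 RXRα and 4.83 input reads at its GENCODE start, a ratio of 0.947 (0.23 to 4.34). Rpl19 had a ratio of 1.11 (0.558 to 2.23), Rpl10 of 1.12 (0.558 to 2.23) and Rpl12 of 1.21 (0.578 to 2.47). Rpl19, Rpl10 and Rpl12 nevertheless had a RARα peak within 1 kb, with scores of 80, 91 and 43. That of Rpl12 was nearest to the start of Lrsam1. Rpl3, the strongest for RARα, had 41.3 RXRα and 19.4 input reads, a ratio of 2.13 (1.22 to 3.94), and no RXRα region within 10 kb.

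With RXRα and input scaled to equal totals, RXRα regions were defined as bins with coverage at least 20 times the larger of local and genome mean input, joined within 200 bp. A region had its midpoint within 1 kb from the start of 18 members, or 22.8%, against 21.6% of all protein-coding genes. At this threshold the members were close to the background, and at 30 times input also, with 12.7% against 12.1%. At 10 times input it was 58.2% against 40.8%, and with the genome mean of input alone 69.6% against 34.6%. Within 10 kb, at 20 times input, the count was 48 members, or 60.8%, against 39.8%. Counting only regions whose nearest gene start was the member, it was 31 members, or 39.2%, against 34% of all genes. The members lie in gene-dense stretches, with a mean of 0.785 other protein-coding starts within 10 kb, against 0.375 for all genes and 0.499 for genes with RARα at the start.

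The 18 regions close to a start had peak ratios between 21 and 65 times input. Rps29 had the strongest, 352 bp wide with its midpoint at -291 bp, where the highest bin held 119 RXRα reads. Rpl22, a 60S protein with a role in T cell development, followed at 58.1 times input with its region 21 bp downstream of the start. Rps3a reached 46.5, Rpl31 and Rpl17 both 41.5, Rpl27a 36.5, Rpl26 and Rpl35a both 34.8, and Rpl24 and Rps10 both 33.2. In Rpl17, Rpl22, Rpl26, Rpl31, Rpl35a and Rps3a the region was centred within 50 bp of the GENCODE start. In Rpl27a, Rps10 and Rps29 it lay at -197, -314 and -291 bp from the GENCODE start. The RefSeq start of Rps10 lies 1385 bp downstream of its GENCODE start. Of the 18 midpoints, 10 fell in an exon and 8 upstream. Several of these regions are small, and in Rpl31 the region was 64 bp wide with 25 RXRα reads in its highest bin and 0 input reads.

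Strong RARα and strong RXRα were set side by side. Of the 10 members with the highest RARα scores at GENCODE starts, 3 had an RXRα region within 1 kb. This was close to the 17 of 74 members with a RARα peak there. The 3 members were Rps9, Rpl7a and Rplp0, at 23.2, 29.9 and 24.9 times input. The region at Rpl7a was nearest to the start of Med22, which also begins within 1 kb. Rps29 and Rpl22, the highest for RXRα, had RARα scores of 55 and 39, both below the median of the family. The sequences just upstream of both kinds of gene are set side by side, from 90 bases before to 10 bases after the GENCODE start on the gene strand, with GGGCGG (an Sp1 word) and CCGGAAG (an ETS or GABPA word) in capitals on either strand. Rpl3 and Rpl8 stand for a high RARα score, and Rps29, Rpl22 and Rpl26 for high RXRα.
Rpl3, chr15:79913827-79913926, minus strand: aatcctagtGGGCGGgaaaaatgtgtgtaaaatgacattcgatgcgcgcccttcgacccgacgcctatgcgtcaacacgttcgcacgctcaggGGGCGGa
Rpl8, chr15:76734411-76734510, plus strand: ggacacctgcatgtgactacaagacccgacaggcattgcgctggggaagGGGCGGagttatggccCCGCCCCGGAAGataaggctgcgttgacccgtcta
Rps29, chr12:70260164-70260263, minus strand: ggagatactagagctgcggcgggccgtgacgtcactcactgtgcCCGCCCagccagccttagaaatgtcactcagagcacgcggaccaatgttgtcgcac
Rpl22, chr4:151699761-151699860, plus strand: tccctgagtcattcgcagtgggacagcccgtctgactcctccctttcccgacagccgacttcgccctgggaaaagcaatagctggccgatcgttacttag
Rpl26, chr11:68714995-68715094, plus strand: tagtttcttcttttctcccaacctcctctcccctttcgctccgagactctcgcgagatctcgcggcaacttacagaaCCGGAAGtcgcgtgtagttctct
In Rpl8 the last 2 words overlap. Neither word was held by 1 kind of gene alone in these windows, since Rpl3 and Rps29 both hold GGGCGG and Rpl8 and Rpl26 both hold CCGGAAG.

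Co-localization was taken as an overlap of a RARα peak with an RXRα region by at least 25% of the narrower interval. It was found within 10 kb of 38 members, or 48.1%, against 23.5% of all protein-coding genes. Among genes with a RARα peak within 1 kb it was 47.3% of the members and 48.5% of all genes, so that this difference was not seen there. At the start itself, 17 of the 74 members with a RARα peak within 1 kb had a co-localized peak there, or 23%, against 38.7% of all genes with such a peak. The presence of an RXRα region within 1 kb gave the same picture, 17 of 74 members or 23% against 44.1%. Among the mitochondrial ribosomal protein genes, 30 of 76 had an RXRα region within 1 kb, or 39.5%.

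This lower share depended on how input was used. At 10 times input it was 60.8% of the 74 members against 80.1% of all genes with RARα at the start, and at 30 times it was 12.2% against 24.8%. When coverage was compared with the genome mean of input alone, it was 73% against 72%, and the gap was gone. After scaling, a bin with 1 input read needed 21 RXRα reads to pass and a bin with 2 needed 41, whereas a bin at or below the mean needed 13. By the medians given above, the members had more input reads and fewer RXRα reads at their starts. The cause of the lower share was not tested.

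**Figure D4:**
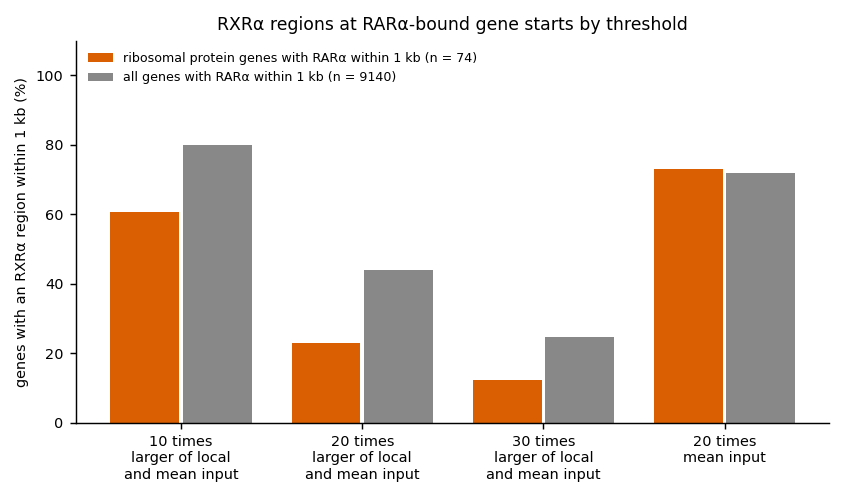
Share of genes with an RXRα region within 1 kb (y axis, %) among the 74 ribosomal protein genes (orange) and the 9140 protein-coding genes (grey) that had a RARα peak within 1 kb, under 4 definitions of a region. The orange bars are the lower ones in the 3 definitions that use local input, at 60.8%, 23% and 12.2%, and stand at 73% beside 72% with the genome mean of input alone.

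The average profiles showed where the signals lay. At the gene start, RXRα coverage averaged 12.1 reads per bin over the 79 members and 12.7 over all genes with RARα within 1 kb, while input averaged 2.67 and 2.17. At 600 bp downstream, RXRα was 1.94 per bin in the members against 4.37 in the other set, and at 1000 bp it was 1.53 against 3.47. Input at these positions was 1.28 and 1.2 in the members, against 1.53 and 1.43. A RARα peak covered the position 200 bp downstream in 92.4% of the members, and the position 800 bp downstream in 1.27%, against 13.2% in the other set. The comparison set was chosen for a summit anywhere within 1 kb, and the peaks of the members were not narrower, as the widths above show.

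**Figure D5:**
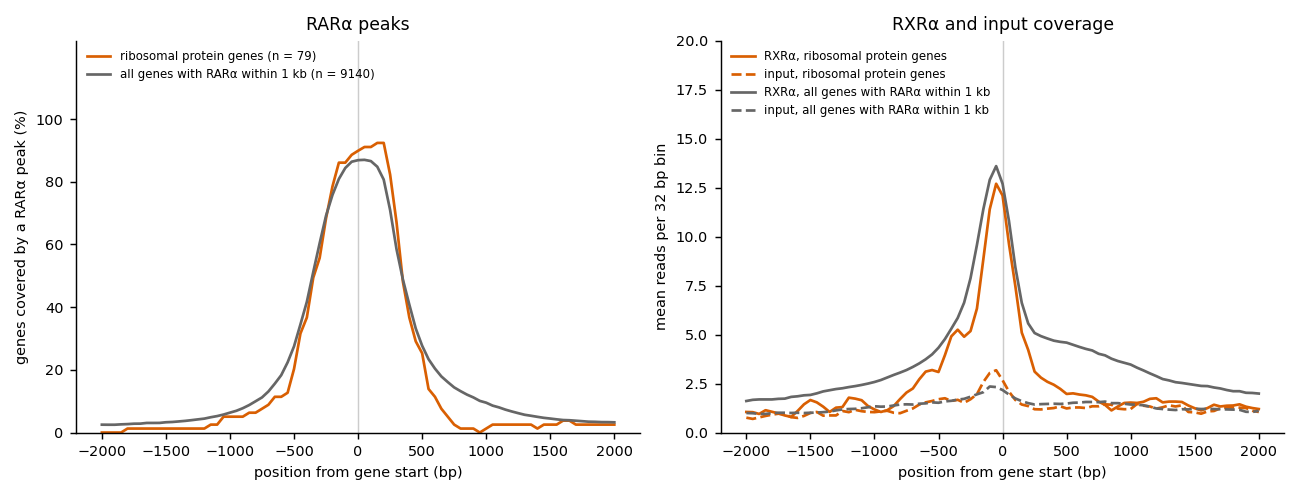
Left, the share of genes covered by a filtered RARα peak (y axis, %) by position from the gene start (x axis, bp, in steps of 50); right, mean reads per 32 bp bin of RXRα (solid) and input (dashed), with bins capped at 1000 reads; orange is the 79 ribosomal protein genes and grey the 9140 genes with a RARα peak within 1 kb. RXRα peaks near the start in both sets, and beyond it falls to 1.94 per bin in the orange set and 4.37 in the grey set at 600 bp.

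Other genes of the translation machinery were compared from lists. Of 7 ribosomal protein genes that the symbol rule leaves out, all had a RARα peak within 1 kb, with a median score of 91, and 3 had an RXRα region. They include Fau, which encodes a fusion with the 40S protein of the eS30 family, at 113, and Gnb2l1, the scaffold protein Rack1, at 52. Of 33 translation factors, 32 had a RARα peak within 1 kb with a median score of 47.5, and 15 had an RXRα region. Among them Eef2, the translocation factor, had 117, and Eif4g2 had the highest at 178. Of 28 ribosome biogenesis genes, 26 had a peak with a median of 50, and 5 had an RXRα region. Nop56 and Ncl, which act in the nucleolus, led that list at 156 and 148, and Taf1b and Tsr1 had no peak within 10 kb.

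The regulators of ribosomal protein synthesis had a RARα peak within 1 kb in 10 of 11 genes, with a median score of 59, and an RXRα region in 5. Mtor, the kinase that controls translation of pyrimidine tract mRNAs, had a score of 49 and an RXRα region at 104.5 times input. Larp1, which binds these mRNAs, had 39 and 34.8 times. Myc had a score of 124 and no RXRα region centred within 1 kb, and Rps6kb2 had no RARα peak within 1 kb. These lists ranged in RXRα from 17.9% of the biogenesis genes to 45.5% of the translation factors and of the regulators, and the ribosomal protein genes at 22.8% stood near the lower end. With this few genes per list these shares were not tested.

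Ribosomal protein genes have many processed copies in the genome, which can take reads away from exons. In the input, the median member had 1.12 reads per bin over exons and 1.11 over introns, against 0.58 and 0.634 for all protein-coding genes. Input was lower in exons than in introns in 41 of 77 members with introns, or 53.2%, against 58.6% of all genes. With the 500 bp next to the start left out, it was 0.987 reads per bin over exons and 1.14 over introns, and input was lower in exons in 45 of 77 members, or 58.4%, against 61.3% of all genes. Whether copies took reads from single exons was not tested. Upstream, over 1 kb, the members had 1.71 reads per bin and all genes 0.8. Of 154 annotated copies named after a member, 4 had a RARα peak within 1 kb, or 2.6%. These were Rps19-ps10 with a score of 59, Rpl34-ps1 with 48, Rpl31-ps4 with 28 and Rpl21-ps3 with 26, named because they are so few. The starts of the copies held a median of 3 input reads, against 10.5 at the members. Whether few mapped reads limited the count of peaks was not tested, so a missing peak does not show missing binding.

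Many ribosomal protein genes carry small nucleolar RNAs in their introns, which guide the modification of ribosomal RNA. In the annotation, 29 members held at least 1, and Rpl4 held 5. RARα was found within 1 kb in 28 of these 29 hosts and in 46 of the 50 other members, with median scores of 67.5 and 61. An RXRα region was found in 6 and in 12 of them, and the median RXRα to input ratio was 2.38 and 3. The score distributions of hosts and non-hosts overlapped over most of their range.

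The starts were searched for words in the 300 bases from 250 before to 50 after the GENCODE start, on both strands. Dimers of RARα and RXRα bind direct repeats of a half-site, which was searched in its usual form AGGTCA and also in the form GGGTCA, then in the alternative form AGTTCA and finally in the form GGTTCA, with 0 to 5 bases between the repeats. Such a repeat was present in 1 of 79 members, or 1.27%, against 0.572% of all protein-coding genes. At RefSeq starts it was 2 of 58 members, or 3.45%, against 0.662%, and the members were Rpl34 and the muscle paralog Rpl3l. Single half-sites were present in 46.8% against 41%. Of the 98 RARα peaks within 1 kb of a member, 1 held a direct repeat within 100 bp of its summit, or 1.02%, against 0.41% of all RARα peaks within 1 kb of a gene. None of the 18 RXRα regions held one, against 1.66% of all such regions. The 1 match lay in Rpl34, 31 bp downstream of its start, under a RARα peak with a score of 69, and is shown with the half-sites in capitals.
Rpl34, chr3:130433279-130433291, plus strand: AGTTCAgGGGTCA
Rpl34 had 27.9 RXRα reads over 7 input reads, a ratio of 3.98 (1.71 to 10.8), and no RXRα region within 10 kb. A missing match says only that these letters are not in the window.

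Words of general promoter factors were counted in the same windows. CCGGAAG was present in 23 members, or 29.1%, against 10.8% of all protein-coding genes and 20.6% of those with RARα within 1 kb. AAGATGG, a YY1 word, was present in 11.4% against 6.73% of all genes and 7.53% of those with RARα within 1 kb. GGGCGG was present in 46.8% against 43.4% of all genes, and 66.3% of genes with RARα within 1 kb held it, more than among the members. TATAAA was present in 11.4% against 13.4% of all genes and 6.72% of those with RARα within 1 kb. The mitochondrial ribosomal protein genes held CCGGAAG in 35.5%, AAGATGG in 17.1%, GGGCGG in 47.4% and TATAAA in 6.58%. The members with CCGGAAG had a RARα peak within 1 kb in 22 of 23 with a median score of 60, and those without it in 52 of 56 with a median of 65.

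The pyrimidine start showed more at RefSeq than at GENCODE starts. A C followed by 4 or more C or T, beginning within 5 bases of the start, was found in 28 of 58 members with a RefSeq start, or 48.3%, against 21.7% of all genes with one. At GENCODE starts it was 21.5% against 18.3%. The shorter word CTTTT within 20 bases of the start was found in 8.86% of members against 3.93% at GENCODE starts, and in 12.1% against 4.42% at RefSeq starts. In 25 members a run of at least 5 pyrimidines lay at any of their RefSeq starts. Of these, 23 had a RARα peak within 1 kb of the GENCODE start with a median score of 69, and 8 had an RXRα region. Among the 33 with a shorter run, 30 had a peak with a median of 60, and 6 had an RXRα region. The number of CpG in the 300 bases had a median of 18 in the members, 11 in all genes and 21 in genes with RARα within 1 kb.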

How the data were processed

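RARα peaks were used as the authors deposited them after MACS, with a score per peak and a false discovery rate in percent. The score is not stated to be a fold over input, and the rate was not used as a filter. RXRα and input were used as the deposited signal, whole-number coverage in 32 bp bins on a linear scale. Per the labels, reads were processed with CASAVA 1.4 and aligned with Bowtie. The methods of the study name mm10 for alignment, while the headers name mm9 and no peak passes an NCBI37 chromosome end. Each read covers 5 bins, so window sums were divided by 5. Gene starts are the 5′ ends of GENCODE M1 genes, and sequences are from NCBI37 and, for RefSeq starts, RefSeq (mm9 placement by exact match, 58 of 79 members). The thresholds (score 20, 20 fold, 10 kb, 25% overlap) follow the methods of the study. Dividing by whichever input was higher, in the bin or on average, the 200 bp joining and the 1 kb distance were chosen here. Intervals are exact binomial at 95%. With 1 library per antibody no test was run, and members are set beside all protein-coding genes. Named genes were the 10 highest for RARα score and for RXRα region, the 5 highest and lowest RXRα ratios, members without a RARα peak within 10 kb, the P-stalk genes, the paralogs Rpl3l, Rpl10l and Rpl39l, 6 genes with known other roles, and list genes, and any other named gene was chosen after its values were seen. The members and lists were chosen with earlier results of these data known. RefSeq starts, the longer pyrimidine word, the copies, exons and introns away from the start, and the RXRα thresholds within RARα-bound genes were added after the data were seen. Functions were tested on simulated data. Software was Python 3.11.15, numpy 2.4.6, pandas 2.3.3, scipy 1.17.1 and matplotlib 3.10.9.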

Additional observations from a re-analysis of the deposited data

How the results depend on the processing

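No paired analysis was possible because the groups hold 1 library each, and for the same reason no replicate could be left out. Of 79 members, an RXRα region lay within 10 kb of 29 at 30 times input, or 36.7% against 27.9% of all genes. For nearest genes only it was 31, or 39.2% against 34%. Within 1 kb it lay at 46 with 10 times input, 10 with 30 times and 55 with mean input alone. These are 58.2%, 12.7% and 69.6%, against 40.8%, 12.1% and 34.6% of all genes. Of the 74 members with RARα within 1 kb, it lay at 45, 9 and 54 in turn, with the shares given above. Co-localization within 10 kb was found in 58, 23 and 63 members under the same 3 settings. These are 73.4%, 29.1% and 79.7%, against 38.9%, 14.9% and 36.2% of all genes. The median RXRα to input ratio was 3.48 within 250 bp, 2.35 within 1000 bp and 2.01 at the most downstream transcript start, against 2.66, 1.79 and 1.24 over all genes. Input over exons of the members was 0.987 reads per bin beyond 500 bp from the start. The cause of these changes was not tested, but a lower threshold passes more bins by construction. RARα counts moved by less than 1.5 times under each alternative run, between 55 (score greater than 50) and 76 (any transcript start) within 1 kb and between 65 and 77 within 10 kb, against 18.4% and 43.6% of all genes for the first pair. At this depth a member start held a median of 10.5 input reads, which limits single ratios.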
